A study of Macaca mulatta with 3 samples.

Results

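Some H3K4me3 peaks of the macaque prefrontal cortex lay in close pairs, split by a short gap with little ChIP signal. This account covers the 932 such pairs, out of 24227 pairs of neighbouring peaks in the authors' list of 24248. A pair was 2 neighbouring peaks with fewer than 1000 bases between their facing edges, each 600 to 2400 bases wide, on chromosomes 1 to 9, 11 to 15, 17 and 18. Peaks where input tags exceeded 10 times their genome mean of 3.20 per kb were left out. Of 2015 neighbours under 1000 bases apart, 1470 lay on these chromosomes, 933 of those had both widths in range, and 1 was then dropped for its input. The pairs comprised 1801 distinct peaks, or 7.43% of the list, because 63 peaks belonged to 2 pairs. The members were thus chosen by ChIP tags, through the calling of the peaks, which also set the low ChIP signal between them; all ChIP values below are descriptions without a test.

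A male rhesus macaque of 3389 days gave the tissue, frozen post mortem: the superior frontal gyrus of the prefrontal cortex. Its chromatin was sonicated and precipitated with an antibody to histone H3 trimethylated at lysine 4 (H3K4me3), and fragmented DNA without precipitation was the input. The labels give single-end reads of 36 bases for both libraries; the deposited ChIP tags span 36 bases and the input tags 38. The study's purpose was to locate transcription start sites; a pool of RNA from 5 males was not analysed here.

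H3K4me3 is placed on nucleosomes around active start sites by the SET1 and MLL methyltransferase complexes, and it is most often found at promoters rich in CpG. At many active promoters the stretch just before the start site holds few nucleosomes, so that marked nucleosomes lie on either side of it. Neighbouring genes that are read in opposite directions can share one such region. No gene or start site was assigned to these pairs, since the genome build of the files is not given in the sources used here, and no sequence was read for the same reason. Coordinates are those of the deposited files, counted from 1.

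The ChIP library held 10023993 tags and the input 9162762, a ratio of 1.09, and the list held 186 peaks of high input in all. There was 1 library of each kind, from 1 animal, so no difference below has a replicate check. Intervals are exact Clopper-Pearson intervals at 95% of pooled tags, while medians have order-statistic intervals. Those of pooled tags take the tags as independent and cover counting error only. They leave out the spread between pairs and may be too narrow. Those of medians cover the spread between peaks or pairs. Neither kind covers the variation between animals or libraries. Brain tissue is a mixture of cell types, so a low level in a gap cannot be told apart as fewer cells with the mark or less of the mark per cell. Nor do these data show whether both peaks of a pair were marked in the same cells.

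Gaps took only 3 sizes. Peak edges lay on a grid of 200 bases, and the smallest distance between any listed neighbours was 400 bases. Of the 932 gaps, 559 were 400 bases long, 250 (26.8%) were 600 and 123 (13.2%) were 800. Just outside the limit, a further 109 pairs that met the other conditions had a gap of 1000 bases. The pairs at 800 bases held a median of 56 ChIP tags in both peaks and 4 in the gap, and those at 1000 held 54 and 5. At the width limits, 351 member peaks were 600 bases wide and 39 were 2400. There were 258 neighbours in which a peak of 400 bases stood beside one in range, and 26 with a peak of 2600. The median member peak was 1000 bases wide (quartiles at 800 and 1400), and the whole of a pair, from outer edge to outer edge, had a median length of 2800 bases (2200 to 3200).

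ChIP signal stood high right up to both facing edges and was low between them. Every tag was placed 75 bases downstream of its 5′ end, towards the middle of its fragment. The peaks then held 25.8 ChIP tags per kb, the gaps 5.32, and the genome as a whole 3.50. The gap density was 0.206 of that in the peaks (0.198 to 0.214), and it was below that of both peaks in 931 of 932 pairs. A gap held 0 to 9 ChIP tags with a median of 3, and 74 gaps held none. In windows of 200 bases, the ones just inside the facing edges averaged 5.58 ChIP tags, those at the outer edges 4.86, and those in the gap 1.06. Of 2360 gap windows 95.3% held 2 tags or fewer and none held more than 5. Of the windows at facing edges 95.7% held 3 or more, as did 94.6% of those at outer edges. The calling of the peaks set the direction of this contrast between gap and edges.

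**Figure D1:**
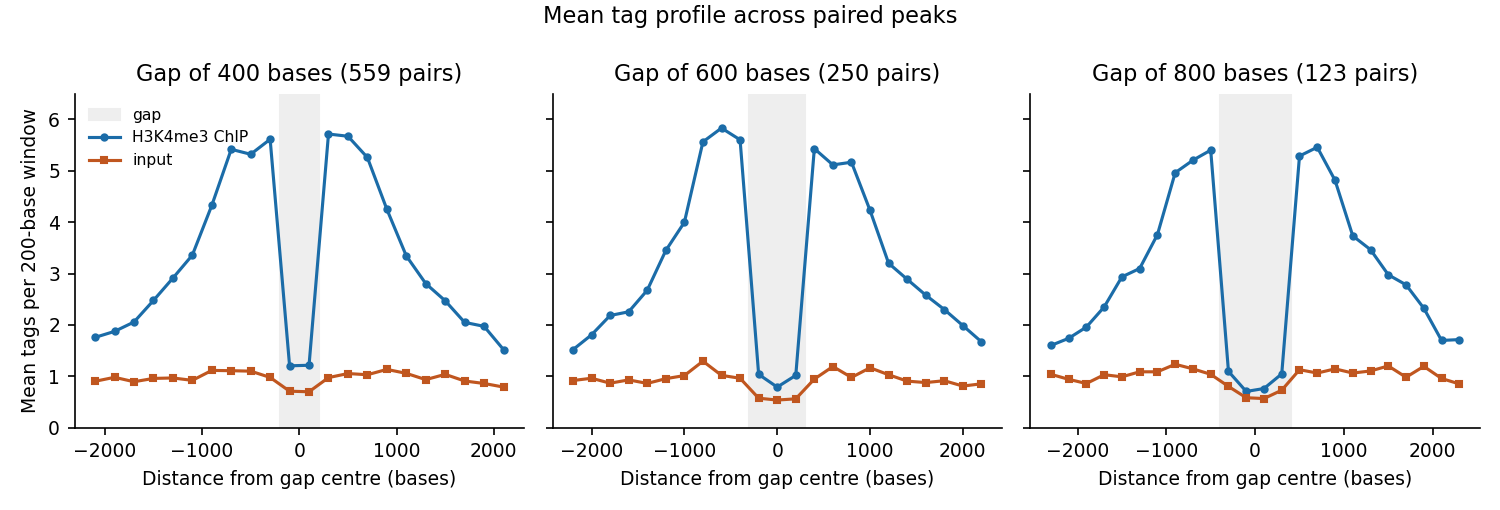
Mean number of tags per 200-base window, against the distance of the window from the centre of the gap in bases, for pairs with gaps of 400, 600 and 800 bases. Blue circles are the ChIP library and orange squares the input; the gap is shaded. ChIP windows in the gap averaged 1.06 tags against 5.58 just inside the facing edges, and the input also dipped in the gap.

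Peaks of the list could hold single low windows without being split. Of 4462 other peaks without high input on the same chromosomes that were as wide as a whole pair (1600 to 5000 bases), 87.6% had at least 1 window of 2 tags or fewer inside them. A run of at least 2 such windows was found in 12.3% of them. In 825 of the 932 pairs every window of the gap was that low. The low stretch of a pair was thus longer than in most single peaks of that width, as the calling had fixed. Matched for length, the whole span of a pair held 22.2 ChIP tags and 5.13 input tags per kb, whereas single peaks held 27.3 and 6.49. Their ratios of ChIP to input, scaled by library totals, lay close together, at 3.96 for the pairs and 3.84 for the single peaks.

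Taken over all tag codes of the file, ChIP tags were about as dense in the gaps as just outside the pairs. Each side of a gap was set against the mirrored stretch of equal length beyond the outer edge of the same peak. In the 124 pairs that shared a peak with another pair, at least 1 such flank lay in the gap of that other pair. The 932 gaps held 2512 ChIP tags and their matched outer flanks 2503, a ratio of 1.00 (0.949 to 1.06). The gap was higher in 393 pairs, lower in 366 and equal in 173. By size of gap this ratio was 1.07 (0.988 to 1.15) at 400 bases, 0.925 (0.834 to 1.03) at 600 and 0.959 (0.840 to 1.09) at 800, so all 3 intervals spanned 1. In the 808 pairs that shared no peak it was 1.01 (0.949 to 1.07). Gap and flanks had both been left out of the peaks by the same calling, which limits how far they could differ.

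Input tags were fewer in the gap than outside the pair. All of them carry the code U0, whereas the ChIP tags above were of several codes, described below. With distinct U0 tags alone, the ChIP ratio was also below 1, at 0.936 (0.879 to 0.997). The gaps held 1541 input tags and the matched flanks 1871, a ratio of 0.824 (0.769 to 0.882). The input was lower in the gap in 441 pairs, higher in 312 and equal in 179. No input tag at all was found in 295 gaps (31.7%), where a count of 0 allows up to 3 tags, against 184 matched flanks (19.7%). Input density was 5.64 tags per kb in the peaks, or 1.76 times the genome mean, 3.96 in the outer flanks and 3.26 in the gap, 1.02 times that mean. Both libraries were empty in 44 gaps and in 22 pairs of flanks. The ratio of gap to flank input was 0.871 (0.791 to 0.959) at 400 bases, 0.757 (0.665 to 0.861) at 600 and 0.809 (0.698 to 0.938) at 800. In the 808 pairs that shared no peak it was 0.808 (0.751 to 0.869). The input limit on the peaks entered the choice of pairs, and whether the authors also used the input to call peaks is not given in the sources used here.

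**Figure D2:**
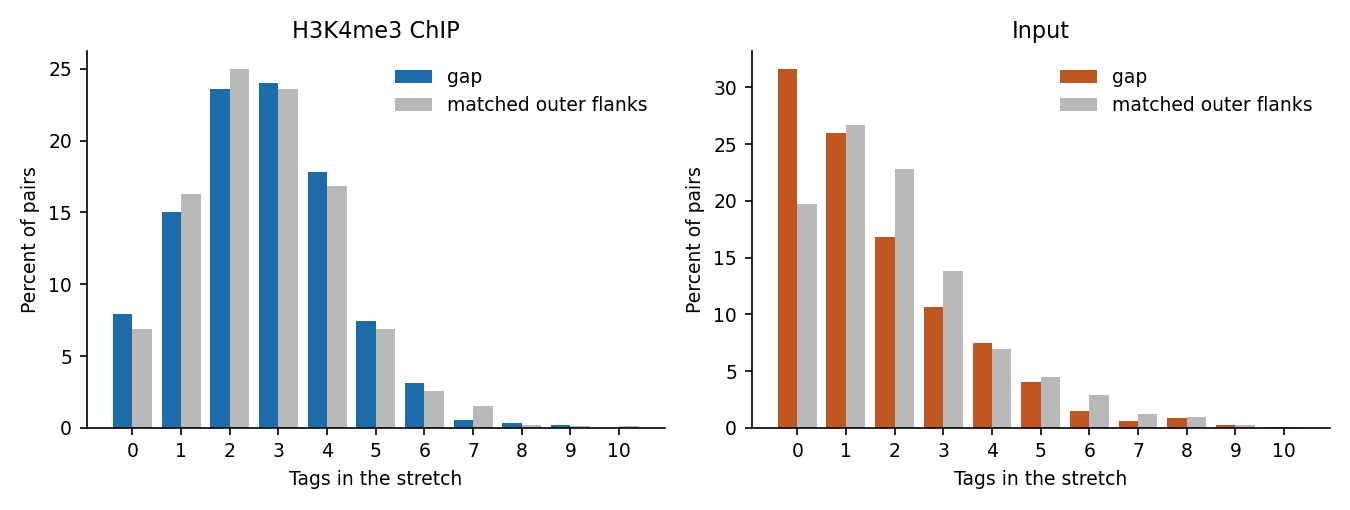
Percent of the 932 pairs by number of tags in the gap (coloured bars) and in the 2 matched outer flanks of the same total length (grey bars), for the ChIP library on the left and the input on the right. The ChIP distributions, over all tag codes, nearly coincide, whereas 31.7% of gaps and 19.7% of flanks held no input tag.

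The ratio of ChIP to input was 1.49 in the gap (1.40 to 1.59) and 1.22 in the flanks (1.15 to 1.30), against 4.19 in the peaks (4.11 to 4.28). Taken singly, 137 of 932 gaps (14.7%) had a ratio of at least 2, with 3 tags put in place of 0 input. That kept most of the 295 gaps without input below 2, as the median gap held 3 ChIP tags. The background was 15.0% of all 2015 listed gaps under 1000 bases. The members were near it, but they are part of it, so this closeness says little about the gaps. A gap of 400 bases or so holds too few tags for its own ratio to be firm. ChIP levels in the gaps were higher where the input was. The 295 gaps without input held 4.37 ChIP tags per kb against 5.18 in their flanks. The 238 gaps with 3 or more input tags held 6.16 against 5.05.

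The mix of ChIP tag codes also differed between gap and flanks. The ChIP file marks each tag U0, U1 or U2, whereas every input tag is U0; no label explains the codes. U1 and U2 made up 23.4% of ChIP tags in the gaps (21.7 to 25.1), 17.9% in the outer flanks (16.4 to 19.4), 20.9% in the member peaks and 19.4% in the whole library. With distinct U0 tags alone, the ChIP density of the gap was 0.936 of the flanks (0.879 to 0.997), so its interval too lay below 1. The input ratio was 0.824 (0.769 to 0.882), and the 2 intervals overlapped slightly. The part of the codes in the input difference was not tested.

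Strands were divided in the gap as at the outer edges. Counted at their 5′ ends, ChIP tags in the first 200 bases of the gap beside the lower-coordinate peak were 30.0% plus-strand, and those in the last 200 bases, beside the higher-coordinate peak, were 68.8%. The 200 bases after the higher peak gave 33.2% and those before the lower peak 70.1%. Each edge was thus richer in tags that point back into its own peak, in the gap as outside. In the input the same 4 stretches had 46.1%, 54.1%, 46.1% and 53.4% plus-strand tags. Moving the tags downstream took many of these tags out of the gap; at their 5′ ends the gap density was 0.276 of the peaks rather than 0.206.

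Inside the peaks, ChIP tags leaned towards the gap and input tags away from it. The inner side of each peak, from its middle to the edge facing its partner, held 52.8% of ChIP tags (52.4 to 53.3) and 47.8% of input tags (46.9 to 48.7). The inner sides held more ChIP tags than the outer ones in 567 pairs and fewer in 321. For the input this was reversed, with 361 and 482 pairs. The lean of the ChIP tags was similar at each gap size, from 52.7% to 52.9%. The input share was 47.5% (46.4 to 48.7) at 400 bases, 47.6% (45.9 to 49.4) at 600 and 49.1% (46.7 to 51.5) at 800, where its interval spanned 50%. The highest 200-base window of a peak lay on its inner side in 51.6% of 1864 cases and on its outer side in 34.2%, the rest being central. The highest windows of the 2 peaks were a median of 1400 bases apart (1200 to 1875).

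These differences were smaller among neighbours with gaps of 1600 bases or more. The same counts were made in neighbours of the same widths, chromosomes and input limit with wider gaps, in the 200 bases on each side of the peaks. Input inside the gap was 0.848 of that outside (0.741 to 0.969) in 265 pairs with gaps of 1000 to 1400 bases. It was 0.913 (0.808 to 1.03) at 1600 to 2400, 1.04 (0.952 to 1.13) at 2600 to 5000, 1.05 (1.003 to 1.10) at 5200 to 20000 and 1.02 (0.992 to 1.04) beyond. The difference thus did not begin at the limit of 1000 bases. The inner share of ChIP tags was 51.7% (50.9 to 52.5) at 1000 to 1400 bases, 49.4% (48.6 to 50.2) at 1600 to 2400, and 49.7% (49.6 to 49.8) beyond 20000. That of input tags was 49.2% (47.6 to 50.8) at 1000 to 1400 bases, 51.1% (49.6 to 52.7) at 1600 to 2400, 51.2% (50.1 to 52.3) at 2600 to 5000 and 49.97% (49.69 to 50.26) beyond 20000. U1 and U2 tags were 24.1% of ChIP tags inside and 16.9% outside at a gap of 400 bases, but 19.4% and 20.6% at 2600 to 5000. With 1 library of each kind these differences between sizes of gap have no test.

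**Figure D3:**
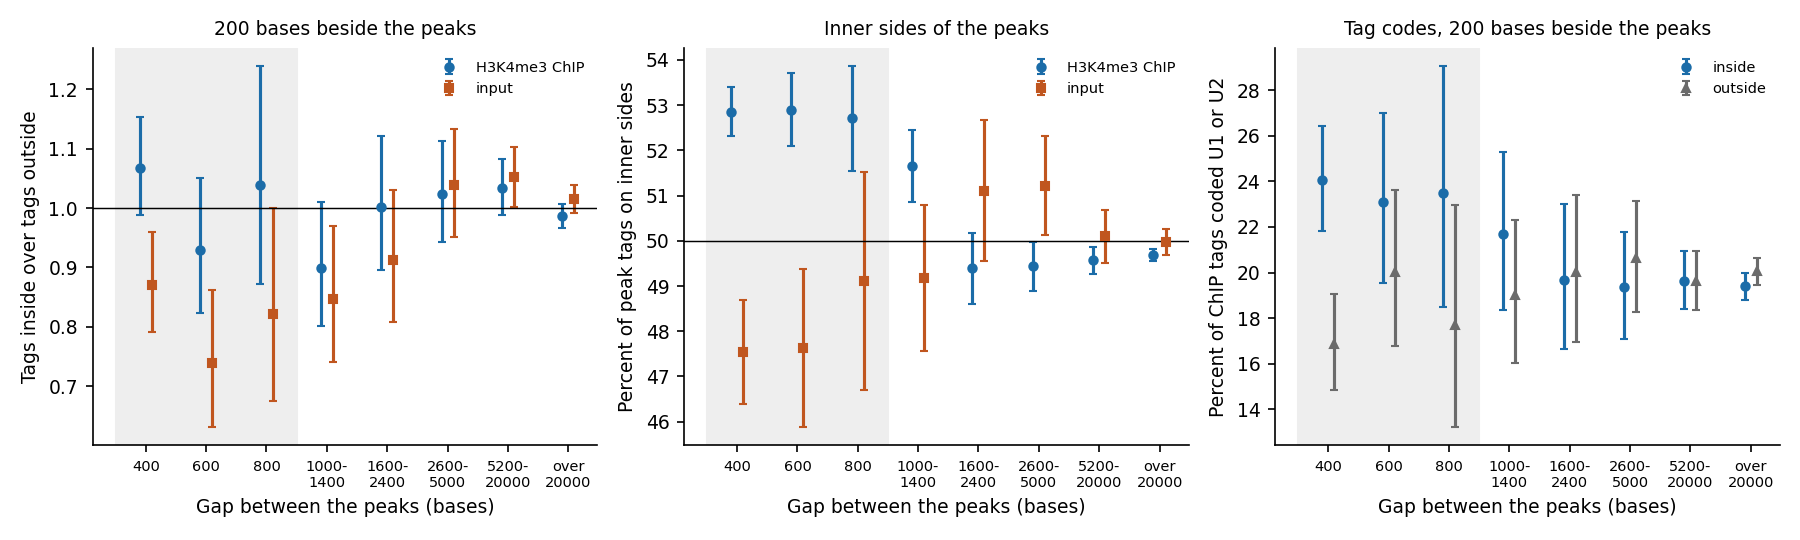
From left to right, measures plotted against the gap between neighbouring peaks in bases, with exact 95% intervals of pooled tags; the shaded sizes are the members. The left panel shows tags in the 200 bases beside the facing edges over those beside the outer edges, for ChIP (blue) and input (orange); centre, percent of peak tags on inner sides; right, percent of ChIP tags coded U1 or U2 inside and outside. Input ratios were 0.871 at 400 bases and 1.02 beyond 20000.

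Narrow paired peaks had higher ratios of ChIP to input than unpaired peaks of the same width. The 1801 member peaks had a median of 25 ChIP and 5 input tags and a median ratio of 4.27 (4.11 to 4.39), a peak without input being given 3 tags there. The 2127 peaks of the same widths whose nearest neighbour was 1 to 5 kb away had a median ratio of 3.50 (3.43 to 3.66). The 10518 with no peak within 5 kb had 3.96 (3.88 to 3.96). With the widths of the members given to each set, the medians averaged 4.25, 3.54 and 3.93. Against peaks without a neighbour the order varied with width. At 800 bases members had 4.57 (4.27 to 4.88) and those peaks 3.66 (3.43 to 3.66), at 2000 bases 3.55 (3.05 to 4.65) and 4.65 (4.49 to 4.91), and at 2400 bases 4.90 (3.18 to 5.59) and 4.25 (3.93 to 4.65). Against peaks with a neighbour 1 to 5 kb away, members had the higher median at every width, though at 2000 bases only by 3.55 against 3.47. Of the members 1767 (98.1%) had a ratio of at least 2 and 965 (53.6%) at least 4. The whole list, which includes other widths and peaks of high input, had 96.2% and 47.6%. Peaks of the same widths had 96.2% and 39.8% with a neighbour 1 to 5 kb away, and 97.0% and 48.5% with none within 5 kb. The deposited p-value or q-value had a median of 1.68e-09 in the members and 4.59e-08 in the list. In those 2 sets of the same widths it was 5.84e-07 and 1.95e-08.

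**Figure D4:**
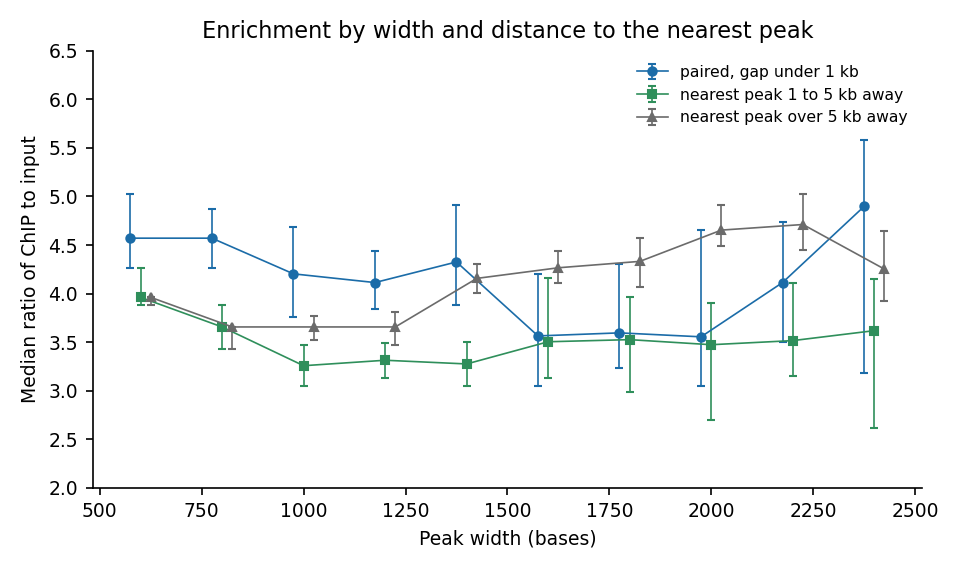
Median ratio of ChIP to input against peak width in bases, for paired peaks (blue), peaks with their nearest neighbour 1 to 5 kb away (green) and peaks with none within 5 kb (grey), with 95% order-statistic intervals. At 800 bases the paired peaks stood at 4.57 and those without a neighbour at 3.66; at 2000 bases they stood at 3.55 and 4.65, and at 2400 bases at 4.90 and 4.25.

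The stronger peak lay about as often on either side. The peak at the lower coordinate had more ChIP tags in 464 pairs, the one at the higher coordinate in 449, and 19 were equal, so the lower one led in 50.8% of unequal pairs (47.5 to 54.1). Lower-coordinate peaks held 11 to 95 ChIP tags and higher-coordinate peaks 11 to 150, both with a median of 25. These directions follow the chromosome, not a gene.

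Within a pair the stronger peak held a median of 61.9% of the ChIP tags (61.0 to 62.9), and it was usually the wider one. Such a share lies above an even split by counting alone, since the larger of 2 counts is taken. The stronger peak was wider in 673 pairs, equally wide in 130 and narrower in 129. These counts cover all 932 pairs, including the 19 with equal tags, where neither peak was stronger. Over all pairs stronger peaks made up 59.2% of the peak length, and over the unequal pairs they held 64.4% of ChIP tags and 62.4% of input tags (61.5 to 63.2). Per kb the 2 peaks differed by a median factor of 1.33. A difference of at least 2 times per kb was found in 87 pairs (9.33%). Among all neighbouring pairs of the list, which include narrower and wider peaks, 15.3% differed that much. Among neighbours that met the same conditions but lay 1 to 5 kb apart it was 11.2%, and over 5 kb apart 13.8%. In pairs with at least 100 ChIP tags the shares were 17.3% in members (9 of 52), 26.1% at 1 to 5 kb (18 of 69) and 17.3% beyond (190 of 1099). Over pairs of any tag count, the median share of the stronger peak was 61.2% at 1 to 5 kb and 61.9% beyond. The median factor per kb was 1.33 and 1.35, so both measures were close to those of the members. The counted densities of the 2 peaks were only weakly related: across pairs, which share 1 library, the Spearman correlation was 0.09 in members and 0.10 at gaps over 5 kb. With a median of 25 ChIP tags per peak, and densities bounded by the calling, such a correlation is drawn low. It therefore does not show whether the levels of neighbouring peaks are unrelated.

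**Figure D5:**
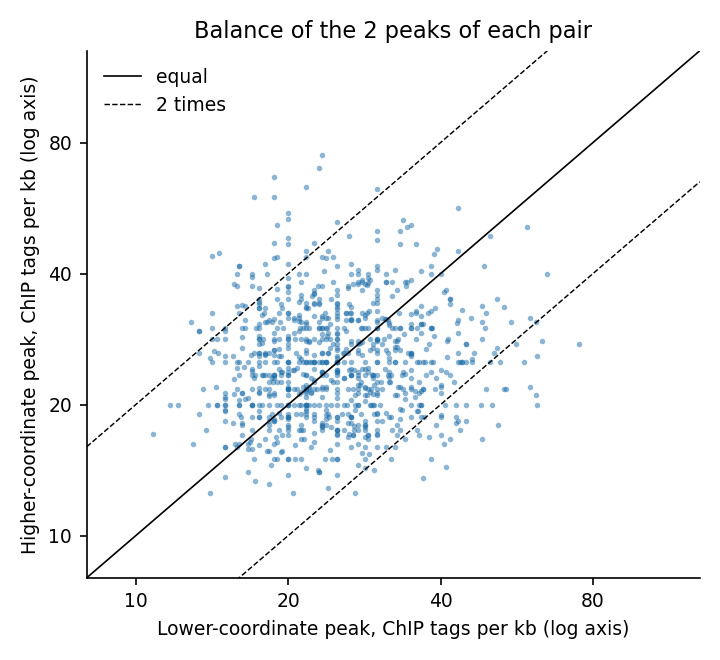
ChIP tags per kb of the higher-coordinate peak against those of the lower-coordinate peak for the 932 pairs, both on log axes. The solid line marks equal density and the dashed lines a difference of 2 times, which 87 pairs reached.

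Single pairs show the range behind these medians. The pair with most ChIP tags lay on chromosome 1, with peaks at 11051201 to 11051800 and 11052201 to 11054200. Its peaks held 14 and 150 ChIP tags around a gap with 1, and 0 and 53 input tags around a gap with 0. It was also the least balanced of the pairs with at least 100 tags, with 91.5% in the stronger peak (86.1 to 95.3). Its wide peak had a ratio of only 2.59 (1.88 to 3.61), and its narrow one, with 3 tags put in place of its 0 input tags, 4.27 (1.19 to 23.2).

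The next pair by ChIP tags, on chromosome 4 at 155335001 to 155336600 and 155337001 to 155339000, was nearly balanced. It held 63 and 91 ChIP tags around a gap with 4, against 3 and 6 input tags around a gap with 1. Its ratios of 19.2 (6.28 to 95.6) and 13.9 (6.13 to 38.8) were the highest among the pairs named here. On chromosome 14, at 11375401 to 11377400 and 11378001 to 11380400, 56 and 93 ChIP tags flanked a gap of 600 bases with 2, while the input had 16, 0 and 18. A pair on chromosome 1 at 134554601 to 134556600 and 134557001 to 134559200 had 58 and 85 ChIP tags and 4 between them, with 19, 2 and 10 input tags.

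The deepest gaps held no ChIP tag. The strongest such pair lay on chromosome 8 at 142591801 to 142594000 and 142594401 to 142596800, where 63 and 78 ChIP tags flanked 400 empty bases and the input had 17, 1 and 12. This pair shared a peak with another pair. Its lower flank of 200 bases held 2 ChIP tags and its upper flank 0. On chromosome 3, peaks at 4713801 to 4715200 and 4715801 to 4716600 held 91 and 32 ChIP tags, and 600 bases between them held none in either library. On chromosome 5, 24 and 90 ChIP tags at 47228401 to 47229600 and 47230001 to 47232400 flanked 400 bases that also lacked tags of either kind. The other pairs in this group, both on chromosome 1, had 108 and 100 ChIP tags in their peaks and 1 input tag in the gap.

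At the other end, among the 52 pairs with at least 100 ChIP tags, the gap reached 38.5% of the density of its peaks. That pair lay on chromosome 1 at 112309601 to 112312000 and 112312601 to 112314400, with 70 and 39 ChIP tags and 6 in the gap, and 28, 3 and 18 input tags, and it shared a peak with another pair. The next 4, on chromosomes 14, 15, 4 and 6, had gaps at 30.0% to 31.5% of the density of their peaks, with 3 to 5 ChIP tags each. The median over the 52 pairs was 14.2% (interquartile range 7.41 to 23.2).

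Unequal pairs often set a narrow peak against a wide one. Besides the pair first named, the 4 least balanced pairs with at least 100 tags had 85.4% to 88.9% of their tags in the stronger peak, which was 1800 to 2200 bases wide against 600 or 800. A couple of nearby pairs on chromosome 6 were among them. In one, peaks at 46444201 to 46445000 and 46445401 to 46447200 held 15 and 120 ChIP tags and 5 and 43 input tags. In the other, at 46457601 to 46459600 and 46460001 to 46460600, the wide peak came first, with 90 and 15 ChIP tags and 48 and 4 input tags. The wide peaks had ratios of 2.55 (1.79 to 3.70) and 1.71 (1.19 to 2.49).

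The gap with most input lay on chromosome 1 between peaks at 115693801 to 115695400 and 115695801 to 115697600. Its 400 bases held 10 input tags and 1 ChIP tag, or 7.81 times the genome mean of the input, and its peaks had 33 and 29 ChIP tags against 15 and 13 input tags. Gaps on chromosomes 14 and 3 followed with 9 input tags each, and 7 and 4 ChIP tags. A further 8 gaps held 8 input tags; the 2 of these with most ChIP tags in their peaks lay on chromosomes 15 and 12 and held 5 and 2 ChIP tags.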

How the data were processed

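The authors deposited 1 line per aligned tag, with a code and a score that was 0 throughout and not used, and a list of peaks with a p-value or q-value each, adjusted or not. The submitters' processing notes name SICER and TopHat, with neither role nor version; how tags were aligned is not given in the sources used here. Tags were counted here after a move of 75 bases downstream, except for the input limit, which used 5′ ends. Ratios are ChIP over input tags divided by the ratio of library totals, with 3 tags in place of 0 input. Gaps were compared with mirrored flanks of equal total length; peaks in 2 pairs count in both. The members, lists and measures were chosen with earlier results of these data known. Pairs named by position were the 5 with most ChIP tags, with most input in the gap and, among those with at least 100 ChIP tags, of highest and lowest gap level and of least balance. On simulated tags for the 808 pairs that shared no peak, gap-to-flank ratios set at 1 and 0.8 were returned as 1.01 and 0.768. An inner share of 55% was returned as 55.2%. These tags were drawn at set densities into pairs already chosen, so only the counting was checked, not the effect of the peak calling. The tools were scipy 1.17.1, numpy 2.4.6, matplotlib 3.10.9 and pandas 2.3.3 under Python 3.11.15.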

Additional observations from a re-analysis of the deposited data

How the results depend on the processing

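For 34 of 45 alternatives the value lay inside the reported interval or, for the number of pairs, within a factor of 1.5. Some of these could hardly move, so their number does not measure how firm the results are. Keeping 1 ChIP tag per position and strand removed 8 of 2512 tags in the gaps. An input limit of 5 times the genome mean left 918 pairs, and the median gap could take few values. Only 340 pairs had both peaks in the part of the list with the smaller deposited values; in them the gap density was 0.179 of the peaks, input in the gap 0.746 of the flanks, the median peak ratio 5.79 and the inner share of ChIP tags 54.0%. At 5′ ends the gap density was 0.276 of the peaks. With distinct U0 tags the gap held 0.936 of the ChIP density of the flanks and the inner share was 52.4%. Scaling by tags outside peaks gave a median ratio of 4.55. The stronger peak held 57.1% when counted per kb and 65.0% in the 52 pairs with at least 100 ChIP tags. The cause of these shifts was not tested. At a median of 3 ChIP tags and 1 input tag per gap, single gaps are not resolved. No paired analysis was possible because each kind of library had 1 sample.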

Other observations

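Pairs were found on all 16 chromosomes, from 18 on chromosome 18 to 144 on chromosome 1. Of the neighbours that met the width and input conditions, 7.51% were pairs under 1000 bases apart. The share was 10.02% on chromosome 14 (8.23 to 12.1) and 4.92% on chromosome 3 (3.62 to 6.51), with the other chromosomes between. Input was lower in the gaps than in the flanks on 12 of the 16 chromosomes, with an interval below 1 on 5 of them. Of the 932 pairs, 305 (32.7%) had a further peak within 5 kb of an outer edge. No such share is given here for other neighbours, so it does not show whether the members were more clustered. The members also formed 59 runs of 3 linked peaks and 2 runs of 4.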
